A study of Mus musculus with 6 samples.

Results

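The 9 genes described here encode chemokines that stromal cells of fat can make: Cxcl1, Cxcl5, Cxcl10, Cxcl12, Cxcl13, Cxcl14, Ccl2, Ccl7 and Ccl9. They were chosen by symbol, and all 9 were found among the 45808 gene lines of the count table and passed the filter on low counts. RNA was sequenced from 6 libraries of cultured mouse stromal-vascular cells, the fraction of fat that holds the precursors of adipocytes, taken from inguinal white fat of male wild-type (WT) mice 8 weeks old. Confluent cells without induction were day 0. Day 2 cells had spent 2 days in medium with 0.5 mM IBMX, a phosphodiesterase inhibitor, 5 µM dexamethasone, a glucocorticoid, 125 µM indomethacin, a cyclooxygenase inhibitor, 850 nM insulin, 1 nM of the thyroid hormone T3 and 1 µM rosiglitazone, a PPAR gamma agonist. Day 6 cells had then been kept in rosiglitazone, T3 and insulin at unchanged doses, which turns such cultures towards beige adipocytes. Each day had 2 libraries, numbered 76 and 77, and no separate culture without the medium was analysed at day 2 or day 6, so time in culture and the medium cannot be told apart.

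Chemokines are small secreted proteins that direct the migration of leukocytes and other cells through G protein-coupled receptors. Those of the CXC and CC classes are named for the spacing of their first cysteines. In fat, stromal cells and macrophages are known sources of them, and many of their genes are switched on by NF-kB or interferon signals and restrained by glucocorticoids. Atypical receptors bind chemokines without the usual G protein signal and remove them.

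The genes lie on 4 chromosomes of GRCm38, in the GENCODE M21 annotation, and reads were counted over exons. Cxcl5 (chromosome 5, 90759360 to 90761624, plus strand) and Cxcl1 (90891241 to 90893115, plus) sit in a cluster with Ppbp, Pf4, Cxcl3, Cxcl15 and Cxcl2. Further along chromosome 5 are Cxcl10 (92346638 to 92348889, minus), between Cxcl9 and Cxcl11, and Cxcl13 (95956951 to 95961068, plus). Ccl2 (chromosome 11, 82035571 to 82037453, plus) and Ccl7 (82045712 to 82047525, plus) are 8.26 kb apart and are followed by Ccl11, Ccl12 and Ccl8. Ccl9 (83572919 to 83578636, minus) lies 9.25 kb from Ccl6 on the same chromosome. Cxcl12 is on chromosome 6 (117168535 to 117181367, plus) and Cxcl14 on chromosome 13 (56288643 to 56296551, minus). Of the exonic length of Cxcl10, 5.91% overlaps Art3, and no other member overlaps an annotated exon. At most 3.59% of a member's 50-base stretches occur in transcripts of another gene.

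RefSeq promoter windows of GRCm38.p6, 250 bases before to 50 after the start, were at hand for 6 of the 9 genes and not for Cxcl5, Ccl2 and Ccl7. The 160 bases before the start are printed for 4 of them, because they hold promoters with and without a match to the NF-kB consensus and none of the 4 fell at both steps. Each runs 5′ to 3′ along the gene's strand and ends at the base before the RefSeq start, which for Cxcl1 and Cxcl13 is not the GENCODE start. Capitals mark matches to the NF-kB consensus on either strand in Cxcl1, Ccl9 and Cxcl10, and the motif TATAAA in Cxcl13.
Cxcl1 (chr5:90891085-90891244, plus): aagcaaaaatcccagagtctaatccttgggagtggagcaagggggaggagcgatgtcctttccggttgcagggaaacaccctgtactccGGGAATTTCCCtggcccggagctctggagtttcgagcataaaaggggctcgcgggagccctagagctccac
Ccl9 (chr11:83578637-83578796, minus): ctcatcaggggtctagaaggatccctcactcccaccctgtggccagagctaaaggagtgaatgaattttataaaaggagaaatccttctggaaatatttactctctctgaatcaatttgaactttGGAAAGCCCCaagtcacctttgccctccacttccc
Cxcl10 (chr5:92348890-92349049, minus): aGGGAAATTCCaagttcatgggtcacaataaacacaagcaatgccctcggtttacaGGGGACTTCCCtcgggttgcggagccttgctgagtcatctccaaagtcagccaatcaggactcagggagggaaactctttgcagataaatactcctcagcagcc
Cxcl13 (chr5:95956779-95956938, plus): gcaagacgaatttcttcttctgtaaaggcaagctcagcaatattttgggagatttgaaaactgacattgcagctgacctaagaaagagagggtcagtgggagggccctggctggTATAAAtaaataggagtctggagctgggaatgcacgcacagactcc

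On both strands of the whole 300-base windows, the NF-kB consensus matched Cxcl1, Cxcl10 and Ccl9, and 8.46% of 32851 promoter windows. The matches of Cxcl1 on its 2 strands overlap, as do 3 of those of Cxcl10. TATAAA matched Cxcl13 and Ccl9, with 13.6% of all windows. The core of the interferon response element (TTTC, 2 bases of any kind, TTTC) matched Cxcl10 and Cxcl14, with 3.44% of all windows. TTGCNNAA, letters of the C/EBP site, matched Cxcl13, with 10.8%, and neither the glucocorticoid palindrome nor TGACGTCA matched a member, with 0.475% and 1.79% of all windows. A match is only a likeness of letters.

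Counts in genes ranged from 22522221 to 29458374 per library, and the limit that a count of 0 sets, 3 counts, lay between 0.0993 and 0.150 CPM. Levels below are CPM, read counts relative to library size with TMM scaling, given as mean ± SD with n = 2 libraries per day, and folds come from a single edgeR fit over the 6 libraries. No source used here says whether a day had 2 cultures or 2 mice, so the p-values speak only of the spread among these 6 libraries, which may be technical. The 95% intervals of log2 changes come from that fit and include the spread between libraries. The limits for a count of 0 cover counting error only. In bulk RNA, fewer cells of a type and less RNA per cell cannot be told apart. The adipocyte markers Adipoq, Fabp4, Plin1, Pparg, Cebpa, Lpl and Cidec were all higher at day 2 than at day 0 and higher again at day 6.

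The chemokine RNA of these cultures shrank and changed its make-up over 6 days. The summed level of the 9 genes was 2309 and 2370 CPM at day 0, then 736 and 733 at day 2, then 228 and 319 at day 6. Per kb of exonic length, a scale on which genes can be compared, Cxcl14 made up 58.7% ± 2.89 of the 9 at day 0 and Cxcl12 21.7% ± 0.142. At day 2 Cxcl13, with 0.0297% at day 0, made up 29.7% ± 2.37, beside 29.2% ± 0.313 for Cxcl14. At day 6 Cxcl12 led with 43.8% ± 6.88, followed by Ccl7 with 23.9% ± 1.25. Between these 2 ends the share of Cxcl14 went to 14.8% ± 4.12.

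**Figure D1:**
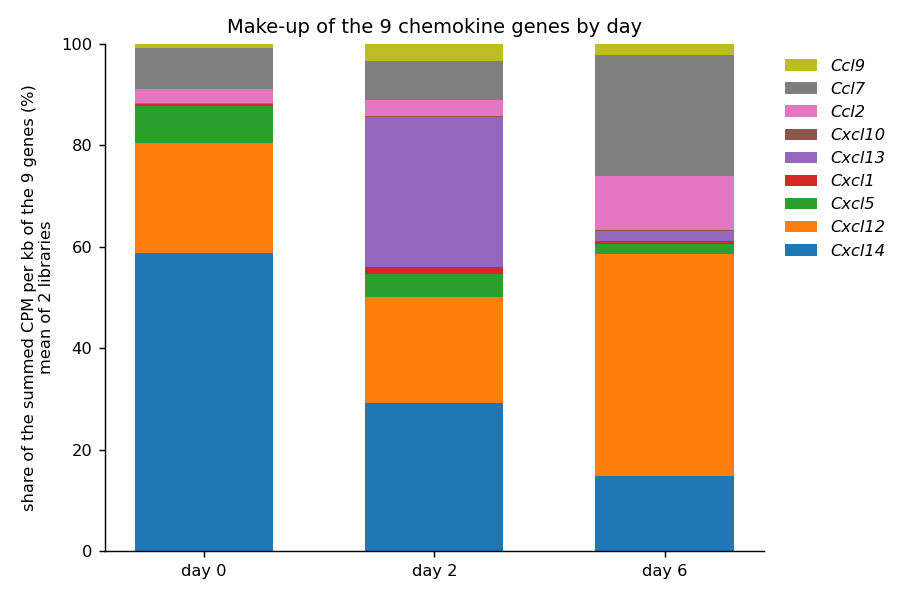
Stacked bars show the share of each gene in the summed CPM per kb of the 9 chemokine genes, in percent, as the mean of the 2 libraries of each day. Cxcl14 (58.7%) filled most of day 0, Cxcl13 and Cxcl14 (29.7% and 29.2%) led day 2, and Cxcl12 (43.8%) and Ccl7 (23.9%) led day 6.

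In level per kb the order at day 0 was Cxcl14 (440 CPM per kb ± 27.1), Cxcl12 (163 ± 3.08), Ccl7 (60.6 ± 9.32), Cxcl5 (54.6 ± 9.31), Ccl2 (21.1 ± 0.711), Ccl9 (6.12 ± 1.65), Cxcl1 (3.97 ± 1.36), Cxcl13 and Cxcl10. Ccl7 and Cxcl5 overlapped in range, the gap between Ccl9 and Cxcl1 was smaller than their summed SDs, and Cxcl13 and Cxcl10 overlapped at about 0.22 CPM per kb. Cxcl14 ranked 63 at day 0 among the tested genes with a single annotated length. At day 2 it ranked 546, next to Cxcl13 at 536, and the 2 overlapped in range, as did Ccl9 and Ccl2. At day 6 the ranges overlapped between Ccl7 and Cxcl14, between Cxcl14 and Ccl2, between Cxcl5 and Ccl9, between Ccl9 and Cxcl13, and between Cxcl1 and Cxcl10. The exonic length of Cxcl12, 8176 bases, joins all its annotated isoforms, so its level per kb depends on which of them the cells use.

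**Figure D2:**
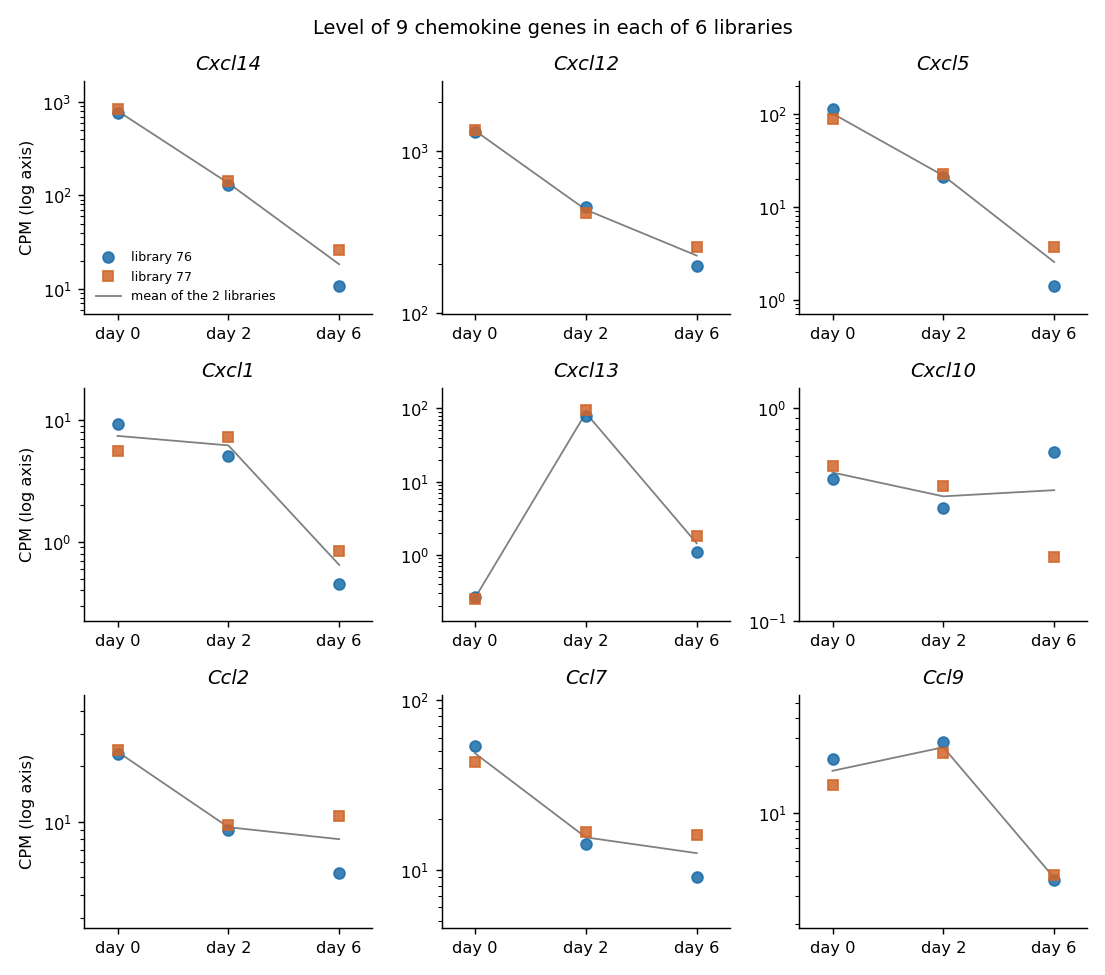
Each panel plots 1 chemokine gene, with CPM on a log axis against the day, circles for library 76, squares for library 77 and a line through the day means. Cxcl14, Cxcl12 and Cxcl5 descend at both steps, Cxcl13 peaks at day 2 (78.0 and 95.7 CPM), and Cxcl10 stays under 1 CPM.

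Day 2 was compared with day 0 for the effect of the induction period, day 6 with day 2 for the maintenance period, and day 6 with day 0 for the whole course. These comparisons share libraries. By edgeR's quasi-likelihood test with Benjamini-Hochberg adjustment over the 14459 genes tested, 5 members were lower and 2 higher at day 2 than at day 0, where 67.1% of all genes tested were called, 33.6% lower and 33.6% higher. From day 2 to day 6, 6 members fell and 0 rose, beside 65.7% of all genes called, 27.5% lower and 38.2% higher. From day 0 to day 6, 7 fell and 1 rose, beside 70.9%, 35.1% lower and 35.9% higher. The numbers called, 7, 6 and 8 of 9, were thus near the background. The median log2 change of the 9 was -1.36, -2.75 and -2.26 in these comparisons, beside 0.0042, 0.12 and -0.012 over all genes tested. The joint test over the days called 8 of the 9, all but Cxcl10, and 84.8% of all genes tested.

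**Figure D3:**
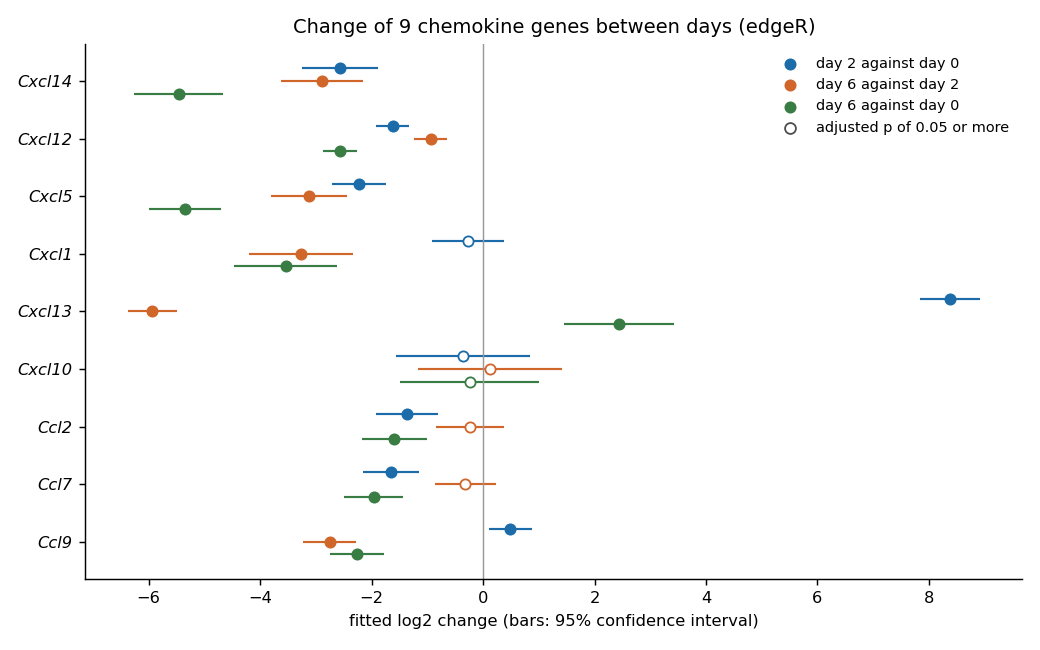
Points show the fitted log2 change of each chemokine gene in the 3 comparisons, with bars for the 95% confidence interval from edgeR and open points where the adjusted p was 0.05 or more. Of the changes from day 0 to day 6, those of Cxcl14 (-5.47) and Cxcl5 (-5.35) lie farthest to the left, Cxcl13 lies at 8.37 for day 2 against day 0, and all 3 intervals of Cxcl10 include 0.

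Cxcl12, or SDF-1, guides and retains blood progenitors and lymphocytes through Cxcr4 and is also bound by the atypical receptor Ackr3. It stood at 1316 and 1351 CPM at day 0, then 451 and 414 at day 2, then 195 and 255 at day 6. Both libraries of each day lay below both of the day before. It fell 3.08-fold by day 2 (log2 change -1.62, SE 0.13, adjusted p = 1.41e-05 by edgeR) and a further 1.92-fold by day 6 (log2 change -0.94, SE 0.13, adjusted p = 0.000271 by edgeR). Over the whole course it was 5.92-fold lower, the smallest whole-course fall of the CXC members that fell at both steps.

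Cxcl14, a chemokine of skin, stroma and fat whose signalling receptor is not settled, fell more. Its level was 769 and 839 CPM at day 0, then 128 and 143 at day 2, then 10.7 and 26.0 at day 6. The days did not overlap, and the 2 libraries of day 6 lay farther apart in proportion than those of the earlier days. It fell 5.94-fold by day 2 (log2 change -2.57, SE 0.30, adjusted p = 0.000102 by edgeR) and 7.44-fold from day 2 to day 6 (log2 change -2.90, SE 0.32, adjusted p = 7.55e-05 by edgeR). Without replicate 77 of day 6 the latter log2 change was -3.67, and that from day 0 to day 6 was -6.22 in place of -5.47.

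Cxcl5 and Cxcl1 attract neutrophils through Cxcr2. Cxcl5 stood at 114 and 89.4 CPM at day 0, then 20.8 and 22.6 at day 2, then 1.38 and 3.69 at day 6. It fell at each step with no overlap between days, 4.69-fold by day 2 (log2 change -2.23, SE 0.21, adjusted p = 3.34e-05 by edgeR) and 8.71-fold by day 6 (log2 change -3.12, SE 0.30, adjusted p = 3.13e-05 by edgeR). The second of these log2 changes was -3.97 without replicate 77 of day 6, and that from day 0 to day 6 was -6.19 in place of -5.35.

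For Cxcl1 no change was detected in the first step. Its level was 9.24 and 5.64 CPM at day 0, then 5.13 and 7.30 at day 2, then 0.447 and 0.847 at day 6. Days 0 and 2 overlapped, and both day 6 libraries lay below all the others. The log2 change by day 2 was -0.27 (95% interval -0.91 to 0.37, adjusted p = 0.413 by edgeR), and its sign turned without replicate 76 of day 0. From day 2 to day 6 it fell 9.66-fold (log2 change -3.27, SE 0.40, adjusted p = 0.000149 by edgeR). Per kb, Cxcl5 was 12.4 and 15.9 times Cxcl1 at day 0, 4.08 and 3.12 times at day 2, and 3.12 and 4.38 times at day 6.

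Cxcl13, which draws B cells into lymphoid follicles through Cxcr5, was the member that rose and fell most steeply. It had 8 and 6 counts at day 0, then 2295 and 2661 at day 2, then 24 and 36 at day 6, which is 0.265 and 0.247, 78.0 and 95.7, and 1.07 and 1.79 CPM. All 3 days stood apart. It rose 332-fold by day 2 (log2 change 8.37, SE 0.23, adjusted p = 2.14e-07 by edgeR) and fell 61.1-fold by day 6 (log2 change -5.93, SE 0.19, adjusted p = 2.47e-07 by edgeR). At day 6 it was still 5.43-fold higher than at day 0 (log2 change 2.44, SE 0.43, adjusted p = 0.000972 by edgeR). Markers of lymphocytes summed to between 0.108 and 0.371 CPM in every library, with Cd3e at 0 counts in each. The B cell marker Cd79a made up 63.9% of these sums over the 6 libraries. Cxcr5 itself stood at 2.13 ± 0.218, 2.36 ± 0.597 and 1.63 ± 0.606 CPM.

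Cxcl10, which attracts activated T cells through Cxcr3 and is a classic interferon-induced gene, was close to the limit of detection. It had 14 and 13 counts at day 0, then 10 and 12 at day 2, then 14 and 4 at day 6, or 0.463 and 0.535, 0.340 and 0.431, and 0.625 and 0.199 CPM. Day 6 spanned the levels of both other days. The log2 change was -0.36 by day 2 (95% interval -1.56 to 0.83, adjusted p = 0.558 by edgeR) and 0.13 from day 2 to day 6 (-1.16 to 1.42, adjusted p = 0.855), so that a difference was not detectable at this depth.

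Ccl2 and Ccl7 attract monocytes through Ccr2 and are neighbours on chromosome 11. Ccl2 stood at 23.4 and 24.6 CPM at day 0, then 9.04 and 9.60 at day 2, then 5.27 and 10.8 at day 6. Ccl7 stood at 53.8 and 43.2, 14.2 and 16.8, and 9.06 and 16.0 CPM on the same days. For both, day 0 lay above all other libraries, and days 2 and 6 overlapped. By day 2 Ccl2 fell 2.58-fold (log2 change -1.36, SE 0.24, adjusted p = 0.00116 by edgeR) and Ccl7 3.14-fold (log2 change -1.65, SE 0.22, adjusted p = 0.000220 by edgeR). From day 2 to day 6 neither passed: the log2 change of Ccl2 was -0.23 (95% interval -0.84 to 0.38, adjusted p = 0.474 by edgeR) and that of Ccl7 -0.32 (-0.86 to 0.23, adjusted p = 0.268).

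That last comparison rested on which day 6 library was kept. Without replicate 77 of day 6, Ccl2 and Ccl7 passed with log2 changes of -0.82 and -0.77 (adjusted p = 0.000659 and 0.00299 by edgeR). Without replicate 76 their log2 changes were 0.21 and 0.04 (adjusted p = 0.192 and 0.837). Ccl7 also passed with library totals as the scaling (log2 change -0.67, adjusted p = 0.0427) and with no filter on low counts (-0.32, adjusted p = 0.0155). Per kb, Ccl7 was 2.10 to 3.26 times Ccl2 in all 6 libraries.

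Ccl9, a rodent chemokine of myeloid cells that acts through Ccr1, rose slightly and then fell. It stood at 22.2 and 15.1 CPM at day 0, then 28.3 and 24.2 at day 2, then 3.75 and 4.04 at day 6. Day 2 lay above day 0 without overlap, though the 2 libraries of day 0 were farther apart than the nearest ones of the 2 days. The rise was 1.40-fold (log2 change 0.49, SE 0.17, adjusted p = 0.0322 by edgeR). Leaving out replicate 76 of day 2 or replicate 77 of day 0 ended the call (edgeR adjusted p = 0.177 and 0.0524), and over all alternatives the adjusted p ran from 5.84e-05 to 0.177. From day 2 to day 6 it fell 6.75-fold (log2 change -2.75, SE 0.21, adjusted p = 8.49e-06 by edgeR).

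The members can be sorted by edgeR's calls at the 2 steps. Cxcl5, Cxcl12 and Cxcl14 fell at both steps (3 of 9), a course called for 5.17% of all genes tested. Cxcl13 and Ccl9 rose and then fell (2 of 9), a course called for 15.1%. Of the remaining members, Ccl2 and Ccl7 fell only at the first step by that test, Cxcl1 only at the second, and Cxcl10 at neither. Whether the steps differed from each other was not tested.

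Genes with the most similar profile over the 6 libraries were sought by the root mean square difference of centred log2 CPM, among genes with a mean of at least 1 CPM. Cxcl5 and Cxcl14 were each other's nearest gene out of 12552, 0.20 log2 units apart (Pearson's r 0.996 over the 6 libraries, which share the day structure). Per kb, Cxcl14 was 6.29 to 9.58 times Cxcl5 in every library. Cxcl12 was nearest to the collagen gene Col5a1 (0.064 log2 units), Ccl2 to the glycosyltransferase gene Mgat3 (0.056) and Ccl7 to Tifa, an adaptor of NF-kB signalling (0.074). Ccl9 lay nearest to the phosphodiesterase gene Pde4b (0.19) and to Foxm1, a transcription factor of the cell cycle (0.19). Cxcl1 lay nearest to Adra2a, an adrenergic receptor gene (0.23). Cxcl13 had no close companion: its nearest gene, Sptssb, a subunit of serine palmitoyltransferase, was 1.02 log2 units away.

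Beside the 9, 32 other chemokine ligand genes were in the table, of which 10 passed the filter on low counts. By day 2, 5 of these 10 fell and 2 rose, with a median log2 change of -0.27. From day 2 to day 6, 4 fell and 3 rose, with a median of -0.39. Beside this, 67.1% of all genes tested were called in the first step, 33.6% lower and 33.6% higher. In the second step 65.7% were called, 27.5% lower and 38.2% higher. In the same cluster as Ccl2 and Ccl7, the eosinophil attractant Ccl11 went from 10.2 ± 0.0400 to 4.98 ± 0.174 and 1.26 ± 0.331 CPM, and Ccl8, a monocyte attractant, from 8.38 ± 0.607 to 2.93 ± 0.328 and 1.22 ± 0.528. Both fell at each step (highest adjusted p = 0.00450 by edgeR). Ccl2, Ccl7, Ccl11 and Ccl8 were thus all lower at day 2 than at day 0, while the fifth gene of that stretch, Ccl12, had 0 to 3 counts per library.

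The membrane-bound chemokines were lower at day 2 than at day 0 as well. Cx3cl1 went from 9.68 ± 0.822 to 5.69 ± 0.416 and 2.20 ± 0.271 CPM (adjusted p = 0.00201 and 0.000215 by edgeR for the steps). Cxcl16 went from 7.15 and 9.10 to 2.51 and 3.88 CPM by day 2 (adjusted p = 0.00156 by edgeR), although 18.3% of its exonic length overlaps another gene. From day 2 to day 6 its log2 change was -0.40 (adjusted p = 0.250 by edgeR), and the libraries of these days overlapped. Cxcl2, next to Cxcl1 and acting on the same receptor, had 8 and 2 counts at day 0, then 23 and 14 at day 2, then 2 and 0 at day 6. Its rise by day 2 (adjusted p = 0.0337 by edgeR) did not hold without replicate 77 of day 0 (adjusted p = 0.146), without replicate 76 or 77 of day 2 (0.188 and 0.0550) or with DESeq2 (0.103), over a range of 0.0161 to 0.188. Day 2 held 13.7 times the Cxcl2 level of day 6, with a 95% interval of 3.54 to 118 that covers counting error only. The fitted log2 change of Cxcl2 from day 2 to day 6, -3.65, was -2.79 without replicate 77 of day 6 and -7.10 without replicate 76, which leaves day 6 at 0 counts, so that the last value depends on the prior count. The fitted log2 change by day 2, 1.80, was 2.89 without replicate 76 of day 0.

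Some of the other ligands rose, neighbours of members among them. Cxcl9, an interferon-gamma target 18.6 kb from Cxcl10, stood at 0.794 and 0.206 CPM at day 0, then 0.510 and 0.611 at day 2, then 2.59 and 4.39 at day 6, and rose 6.16-fold in the second step (adjusted p = 0.00157 by edgeR). Its log2 change from day 0 to day 6, 2.72, was 4.04 without replicate 76 of day 0 and 2.13 without replicate 77 of day 0. Ccl6, a chemokine of myeloid cells next to Ccl9, went from 0.463 ± 0.188 and 0.541 ± 0.00312 to 2.54 ± 0.702 CPM (4.68-fold in the second step, adjusted p = 0.000796 by edgeR). Ccl25, on chromosome 8, rose by day 2 from 2.05 ± 0.101 to 3.42 ± 0.0117 CPM (adjusted p = 0.00892 by edgeR). From day 2 to day 6 its log2 change was -0.21 (adjusted p = 0.363 by edgeR). Its call from day 0 to day 6 (adjusted p = 0.0418 by edgeR) was lost under all alternatives but the filter of 1 CPM in at least 2 libraries, in a range up to 0.227. Ccl28 passed in none of the comparisons, at 0.349 to 0.848 CPM. Ccl27a shares 45.0% of its 50-base stretches with other genes and is uncertain.

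**Figure D4:**
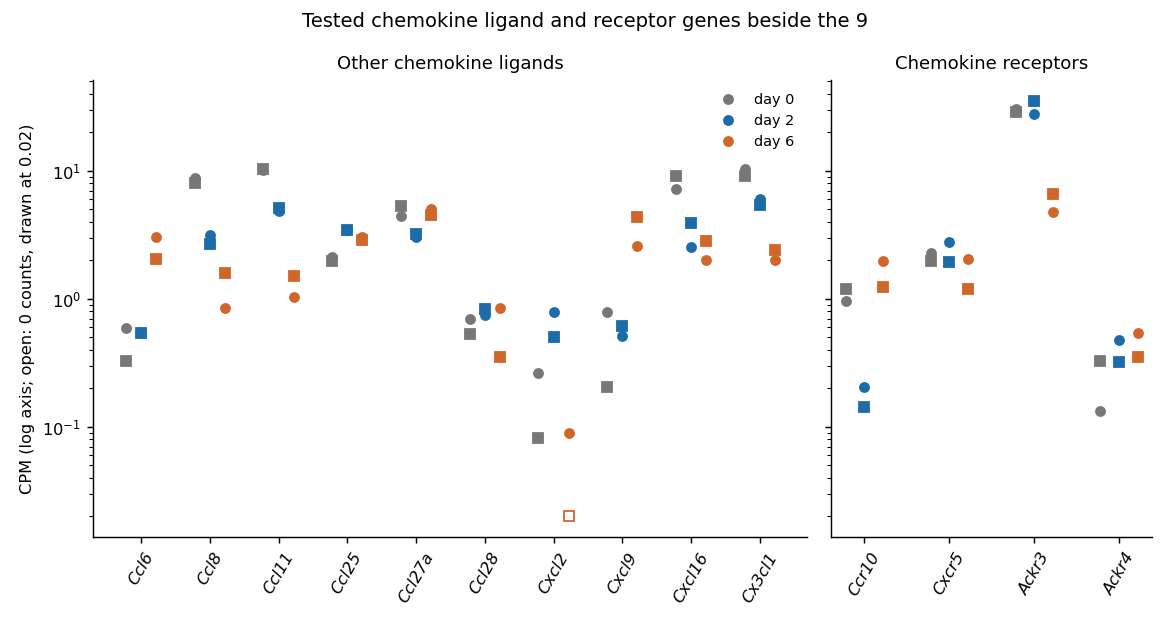
CPM on a log axis is plotted for each tested chemokine ligand outside the 9 and each tested receptor, with colours for days, circles for library 76, squares for library 77 and an open symbol at the bottom for 0 counts. Ccl8, Ccl11, Cx3cl1 and Ackr3 are lowest at day 6, and Cxcl9 and Ccl6 are highest there.

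Receptors for these chemokines were mostly near or under the limit of detection. Of 23 receptor genes, 4 were tested and 5 had 0 counts in all 6 libraries. Ccr2, the receptor of Ccl2 and Ccl7, and Cxcr3, that of Cxcl10, were among the latter, Cxcr2 had 0 to 2 counts per library, and Cxcr4 had 1 to 9. The scavenging receptor of Cxcl12, Ackr3, was the best counted, at 30.2 and 28.7 CPM at day 0, then 27.6 and 35.3 at day 2, then 4.78 and 6.53 at day 6. It fell 5.58-fold from day 2 to day 6 (log2 change -2.48, adjusted p = 5.03e-06 by edgeR), after a log2 change of 0.09 by day 2 (adjusted p = 0.578). Ccr10 went from 1.08 ± 0.165 to 0.174 ± 0.0425 and 1.61 ± 0.508 CPM (adjusted p = 0.00129 and 0.000339 by edgeR for the steps). Ackr4 and Cxcr5 passed in none of the comparisons.

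Genes around the members were followed in 3 lists. Of all genes tested, 33.6% were lower and 33.6% higher at day 2 than at day 0. From day 2 to day 6, 27.5% of all genes tested fell and 38.2% rose. Of 26 genes of the NF-kB pathway and its feedback, 16 were lower and 7 higher at day 2 than at day 0 (median log2 change -0.32), and 8 fell and 9 rose from day 2 to day 6 (median -0.086). Nfkbia, the inhibitor that holds NF-kB in the cytoplasm, rose from 18.9 ± 0.574 to 56.7 ± 0.484 CPM by day 2 (adjusted p = 1.30e-06 by edgeR). It then fell to 36.6 ± 2.05 CPM at day 6 (adjusted p = 0.000107 by edgeR). The cytokine Lif fell 3.65-fold, Csf1, the growth factor of macrophages, 3.01-fold from 1570 ± 155 CPM, and Ptgs2, the inducible cyclooxygenase, 2.39-fold (highest adjusted p = 0.00114 by edgeR). Csf1 then rose 1.43-fold from day 2 to day 6 (adjusted p = 0.0271 by edgeR). Il1r1, the receptor of interleukin 1, was higher at day 2 (484 ± 3.82 to 924 ± 68.9 CPM, adjusted p = 0.00195 by edgeR). Il1r1 then fell 5.78-fold (adjusted p = 8.53e-06 by edgeR).

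Of 8 genes tied to glucocorticoid signalling and the restraint of inflammation, among them Nr3c1, the glucocorticoid receptor itself, 4 rose and 2 fell by day 2, and 7 rose and 1 fell from day 2 to day 6, after dexamethasone had been left out of the medium. Over all genes tested, 33.6% rose and 33.6% fell in the first step, and 38.2% rose and 27.5% fell in the second. Fkbp5, a co-chaperone of the glucocorticoid receptor, went from 25.6 ± 1.54 to 171 ± 2.48 CPM, and to 287 and 211 CPM at day 6. Tsc22d3, or GILZ, which binds NF-kB, went from 40.5 ± 0.212 to 84.1 ± 1.35 and 209 ± 20.2 CPM. Zfp36, which speeds the decay of cytokine mRNAs, went from 21.0 ± 0.879 to 35.1 ± 2.66 and 42.4 ± 3.30 CPM, and the highest adjusted p of these 3 genes in the 2 steps was 0.0271 by edgeR. Per1, a clock gene, rose 2.13-fold by day 2, and was 1.24-fold higher again at day 6. Those that fell by day 2 were Anxa1, annexin A1, 1.38-fold (log2 change -0.46, adjusted p = 0.0078 by edgeR), and Nr3c1, 1.22-fold (log2 change -0.29, adjusted p = 0.00619 by edgeR). Both then rose, 2.04-fold and 1.74-fold, and Irak3, an inhibitor of Toll-like receptor signalling, fell 1.63-fold from day 2 to day 6. Nr3c1 and Irak3 were named after their values were seen.

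Of 11 genes whose products cut or bind chemokines or act on their mRNA, 6 fell and 4 rose by day 2 (median log2 change -0.39). From day 2 to day 6, 7 fell and 0 rose (median -0.75). The shares of all genes tested were 33.6% lower and 33.6% higher in the first step, and 27.5% and 38.2% in the second. Dpp4, a protease that trims the amino terminus of Cxcl12 and Cxcl10 and marks interstitial progenitors of fat, had 7.48 and 12.5 CPM at day 0, then 0.815 and 0.935 at day 2, then 0.402 and 0.648 at day 6. It fell 11.3-fold by day 2 (adjusted p = 2.74e-05 by edgeR). Mmp14, a membrane-bound metalloprotease, fell 3.95-fold by day 2, and Mmp2, which can inactivate Cxcl12 and Ccl7, 3.41-fold from day 2 to day 6 (adjusted p = 3.13e-05 and 5.53e-05 by edgeR). Sdc2, a heparan sulfate proteoglycan of the cell surface, fell 2.24-fold and Zfp36l2, a decay factor of AU-rich mRNAs, 1.95-fold by day 2. Sdc1, a relative of Sdc2, went from 215 ± 0.991 to 341 ± 7.93 and 74.9 ± 21.3 CPM.

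Markers of cell types also changed between the days, not all in the direction of the members. The 9 progenitor and fibroblast markers summed to 33602 and 29084 CPM at day 0, then 4179 and 4580 at day 2, then 3386 and 5323 at day 6, with 7 of 9 lower at day 2 than at day 0 and 8 of 9 lower at day 6. Of all genes tested, 33.6% were lower at day 2 and 35.1% at day 6, each against day 0. The collagen gene Col1a1 made up 85.9% of the sums of these 9 markers over the 6 libraries. Without it the other 8 summed to 2871 and 2967 CPM at day 0, then 1435 and 1717 at day 2, then 929 and 1408 at day 6. Adipocyte markers summed to 1034 and 1201, 10367 and 9562, and 46840 and 39523 CPM. Macrophage markers, of interest for Ccl9, Ccl6 and Cxcl9, summed to 58.2 and 50.4 CPM at day 0, then 71.3 and 37.4 at day 2, then 170 and 68.6 at day 6. Lyz2 made up 51.3% of the macrophage sums over the 6 libraries. Without it the other 12 summed to 28.5 and 25.4 CPM at day 0. They summed to 30.4 and 18.0 at day 2, and to 86.6 and 33.1 at day 6. Of the 12 macrophage markers tested, 1 was lower at day 2, beside 33.6% of all genes tested. From day 2 to day 6, 6 rose and 0 fell, beside 38.2% and 27.5%. At day 6, 8 were higher than at day 0 and 0 lower, beside 35.9% and 35.1%. The part of these shifts in the changes of the members was not tested.

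At day 6, 8 of the 9 members, all but Cxcl10, were higher in library 77 than in library 76, as were 51.6% of all genes tested. The same library had the higher sum of progenitor markers, with and without Col1a1, and the lower sums of adipocyte and macrophage markers. At day 0 and day 2, 4 and 7 of the 9 were higher in library 77, beside 49.6% and 51.5% of all genes tested. Endothelial markers summed to 32.7 to 37.6 CPM at day 0, 14.1 to 14.7 at day 2 and 34.7 to 35.5 at day 6, and mural markers to 121 to 132, 37.4 to 39.1 and 114 to 116. Single markers did not follow these sums: at day 6, 6 of 7 tested endothelial markers were lower than at day 0 and 1, Egfl7, was higher (median log2 change -1.18), and 4 of 6 mural markers were lower and 2, Cspg4 and Notch3, higher (median -1.80). Over all genes tested, 35.1% were lower and 35.9% higher at day 6 than at day 0. Mesothelial markers, of which Krt19 made up 95.2%, summed to between 2.07 and 11.1 CPM and Schwann cell markers to between 0.935 and 3.11 CPM.

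**Figure D5:**
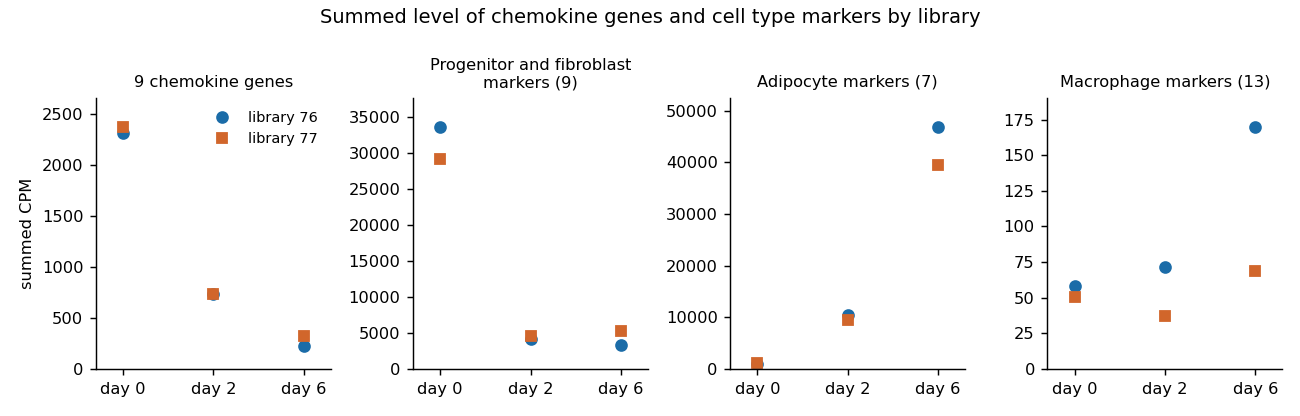
Summed CPM is plotted by day for the 9 chemokine genes and for markers of progenitors and fibroblasts, adipocytes and macrophages, with circles for library 76 and squares for library 77 and each axis starting at 0. At day 6 library 77 lies above library 76 for the chemokines (319 and 228 CPM) and the progenitor markers, whose sum is mostly Col1a1 (85.9%), and below it for the other 2 lists.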

How the data were processed

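The deposited table holds raw read counts per gene, although its column names say RPKM: the values are whole numbers and end in HTSeq's summary lines, which stayed out of library sizes and tests. Of all counted alignments, those lines held 2.62% to 3.23% outside features, 4.40% to 4.91% ambiguous and 4.16% to 9.05% not unique. The submitters' processing notes name TopHat2 2.0.13, HTSeq 0.9.1, mm10 and GRCm38, and no source used here gives the annotation or strand setting. If strand was not used, reads of overlapping genes on opposite strands cannot be told apart.

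Groups follow the day that each title states. The main test was edgeR 4.0.16's quasi-likelihood F test in R 4.3.3 with TMM scaling and filterByExpr, which left 31349 genes untested, in 1 fit of all 6 libraries with a mean per day, 3 residual degrees of freedom and a threshold of 0.05 after Benjamini-Hochberg adjustment over all genes tested. Standard errors are the log2 change over the root of F. The code of the test was run on simulated counts in which few genes changed. Far more genes were called in these data, so that run does not gauge the scaling or the errors among the calls here. Levels per kb use the joined exons of GENCODE M21, and log2 CPM for profiles used a prior count of 2. The 2 libraries of each day were farther apart than counting error (chi-square per degree of freedom 6.75, 7.53 and 26.3). Same-numbered libraries deviated from their day means together (Pearson's r across genes 0.109, 0.112 and 0.213, all above 0.1). Spearman's correlations were weaker, 0.0589, 0.0546 and 0.176. By Pearson's r the numbers were taken to pair libraries. No source used here says what they mark.

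The members and gene lists were chosen with earlier results of these data known. All members were named, with the tested chemokine ligands and receptors. Of each other list, up to 4 and 2 genes with the largest called changes in the first and second step were named. The 2 most similar genes were found per member, and only some of these were named above. Those left out include genes with shared sequence or overlap, and also Sox11, Ube2ql1, Rab36 and Dnase1l2, which have neither. 1 further gene list is not reported here. Alternatives were other scalings and filters, DESeq2 1.42.0, a fit of the 4 libraries compared, the replicate block and each library left out. For genes other than members, these were added after seeing the data. They covered called changes of the chemokine ligands and receptors, and list genes only in the step that named them. A day left with 1 library was assumed to vary like the others.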

Additional observations from a re-analysis of the deposited data

How the results depend on the processing

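The number of members called changed little: over 13 alternatives it was 6 to 7 for day 2 against day 0, 8 for day 6 against day 0 and 6 to 8 for day 6 against day 2. Counts over all genes ranged from 8140 to 10423, 8888 to 10571 and 8115 to 9912, and from 11373 to 12846 for the joint test. The replicate block pairs libraries by number. With it, 9847, 10356 and 9669 genes were called, beside 9704, 10253 and 9500 without it. It called 7, 8 and 6 members, as the main fit did. Of the calls read under this block, only that of Ccl25 from day 0 to day 6 was lost (adjusted p = 0.0505 by edgeR). Other named changes, such as the rises of Csf1 and Zfp36 from day 2 to day 6, were not read under any alternative. Library totals as the scaling moved the median log2 change of all genes to 0.12, -0.26 and -0.23 in the same order, and the share of calls that were higher from 58.1% to 37.1% for day 6 against day 2 and from 50.6% to 38.0% for day 6 against day 0.

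Of the 27 log2 changes of members, 5 turned in sign under at least 1 alternative, none of which had passed the test. Over the fits that each left out 1 library, the change of Cxcl1 by day 2 ranged from -0.53 to 0.14, positive without replicate 76 of day 0. Those of Ccl2 and Ccl7 from day 2 to day 6 ranged from -0.82 to 0.21 and from -0.77 to 0.043, positive without replicate 76 of day 6. That of Cxcl10 from day 0 to day 6 ranged from -1.29 to 0.34, positive without replicate 77 of day 6. That of Cxcl10 from day 2 to day 6 ranged from -0.93 to 0.69, with -0.039 without replicate 76 of day 2 and -0.0094 without replicate 77 of day 0, and was -0.23 with library totals and -0.0011 in a fit of the 4 libraries compared. The cause was not tested. Cxcl10 left the test under the filter of 1 CPM in at least 2 libraries. Depth limits Cxcl10, Cxcl2 and most receptors, which held few counts per library.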

Other observations

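Some chemokine genes under the filter on low counts are given as counts in the order day 0, day 2 and day 6, with libraries 76 and 77 of each day. Pf4, platelet factor 4, had 9 and 6, 3 and 1, and 20 and 8. Ppbp, its neighbour beside Cxcl5, had 13 and 2, 0 and 0, and 1 and 0. Cxcl3, in the same cluster, had 11 and 5, 0 and 0, and 0 and 1. Ccr1, a receptor of Ccl9, had 0 and 2, 19 and 4, and 5 and 2. None of these was tested, and they were chosen after their values were seen.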
